A study of Homo sapiens with 6 samples.

Results

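The genes described here are 52 splicing genes, of 19491 genes listed in the deposited tables: 10 SR proteins, 18 hnRNPs, 7 Sm proteins, 3 proteins of the U1 snRNP, 12 of the U2 snRNP and U2AF, and 2 of the U5 snRNP. The rule is a list of named genes from these families and uses no measured value, but the families were picked with earlier results of these data known. The list does not hold every family member. SRSF8, HNRNPDL and HNRNPLL, for example, are among the other splicing genes described further below. All 52 were found by symbol, and all passed the filter on low values, which asks for 5 or more reads on average in 1 of the groups compared. PC-3, an established line from a prostate cancer metastasis, was grown in RPMI medium with serum and was left untreated (control) or was exposed for 48 h to 1 mM GPNA or 10 mM BenSer. GPNA is L-γ-glutamyl-p-nitroanilide and BenSer is benzylserine, both amino acid analogs that block the glutamine transporter ASCT2. BenSer also inhibited the amino acid transporter LAT1 in oocytes, and the paper proposes that it has effects beyond ASCT2. The doses differ, so that values of GPNA and BenSer stand side by side here. No difference between them can be tied to the compound rather than to its dose, or to ASCT2 alone. The study asked how blocking ASCT2 changes the RNA of these cells.

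Each group had 2 labelled libraries of total RNA. Their depth ran from 23077986 to 32178154 reads. The 2 libraries of each group were nearly as alike as read sampling allows (chi-square per degree of freedom 1.04 to 1.06, against 5.50 to 20.7 between libraries of different groups), and they were counted as 1 sample. This is an assumption from their likeness: the study's methods speak of replicate experiments, and the labels do not say which cultures these libraries came from. Counted so, with 1 sample per group, no test of a treatment was made, and "lower" or "higher" below compares these libraries. Levels are reads per 1000000 reads of the library (CPM). A difference is the difference in log2(CPM + 1) between group means, and the 95% interval beside it is an exact Clopper-Pearson interval of the ratio of reads, on the log2 scale, which covers counting error only. A gene is called lower where CPM + 1 was at least 20% below the other group, and higher where it was at least 25% above, which is the same step on the log scale (0.32). The cells carried epithelial transcripts: all 6 epithelial and cancer line markers looked for (KRT8, KRT18, KRT19, EPCAM, CDH1 and VIM) were listed, at 1426 to 1511 CPM in sum. Single markers differed between groups: VIM, a mesenchymal filament gene, was at 186 and 188 CPM in the control libraries, 187 and 179.5 CPM with GPNA and 145 and 142 CPM with BenSer. KRT19 was at 667 and 670.2 CPM in the control libraries, 711 and 713 CPM with GPNA and 781 and 774 CPM with BenSer. CDH1, an epithelial cadherin gene, was at 85.6 and 89.0 CPM in the control libraries, 91.7 and 93.3 CPM with GPNA and 123 and 122 CPM with BenSer. KRT18 was at 108 and 109 CPM in the control libraries, 96.5 and 99.01 CPM with GPNA and 91.5 and 92.2 CPM with BenSer. KRT8 was at 287 and 292 CPM in the control libraries, 255 and 248 CPM with GPNA and 273 and 278 CPM with BenSer, and EPCAM ranged from 91.2 to 100.2 CPM over the 6 libraries. The epithelial markers thus had no common direction with BenSer, and their part in the results on splicing genes was not tested. Of 8 markers of blood, endothelial, fibroblast and muscle cells 3 were listed, at 4.64 to 7.97 CPM in sum. Less of a transcript in all cells and fewer cells with it cannot be told apart in such bulk RNA.

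Splicing removes introns in a large RNA-protein machine, the spliceosome. Its small nuclear ribonucleoproteins (snRNPs) carry a ring of Sm proteins and particle-specific proteins: U1 recognises the 5' splice site, U2 the branch site with the help of U2AF at the 3' splice site, and U5 holds the exons during catalysis. SR proteins bind exons through RNA recognition motifs and recruit the machinery through arginine-serine domains. hnRNPs coat nascent RNA, often oppose SR proteins in the choice of exons, and act in RNA export, stability and translation. Several SR protein and hnRNP genes control their own level through exons that send the transcript to nonsense-mediated decay.

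With BenSer 51 of the 52 genes were below the control and 24 were at least 20% lower, against 10.3% of all genes compared and 13.9% of genes averaging 10 CPM or more. None of the 52 was 25% higher, against 7.36% of all genes. At the wider step of 1.5-fold 4 were lower (HNRNPD, SNRPF, SNRPA and HNRNPA1), against 1.58% of all genes. The median difference was -0.32, and -0.028 over all 18976 genes compared. With GPNA 48 of 52 were below the control, yet none was 20% lower (2.74% of all genes, and 2.34% of those averaging 10 CPM or more) or 25% higher (2.86%), and none was 1.5-fold lower (0.0637%). The median difference with GPNA was -0.15, and -0.028 over all 18828 genes compared. Genes below 0 made up 55.4% of all genes with BenSer and 56.7% with GPNA. Among genes averaging 10 CPM or more, which include 51 of the 52, they made up 56.8% and 66.4%, with medians of -0.042 with BenSer and -0.058 with GPNA.

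Single libraries gave the same order. Both BenSer libraries lay below both control libraries for 49 of the 52 genes, against 37.5% of all genes and 47.5% of those averaging 10 CPM or more, and the remaining 3 (SRSF4, SF3A2 and HNRNPUL2) overlapped. Both GPNA libraries lay below both control libraries for 44 genes, against 34.4% of all genes and 50.1% of those averaging 10 CPM or more. Only HNRNPH2 among the 52 had both GPNA libraries above the control, against 22.4% of all genes, and 7 overlapped. The counting interval lay below 0 for 47 genes with BenSer, against 25.8% of all genes and 40.9% of those averaging 10 CPM or more. With GPNA it lay below 0 for 43, against 20.1% and 37.6%. It lay above 0 for none of the 52 in either comparison, against 18.2% of all genes with BenSer and 9.78% with GPNA. These genes are abundant, with a median control level of 85.2 CPM at the 93.8th percentile of the listed genes, so their counting intervals are narrow (typically 0.062 to either side of the difference with BenSer and 0.063 with GPNA) and small differences show.

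**Figure D1:**
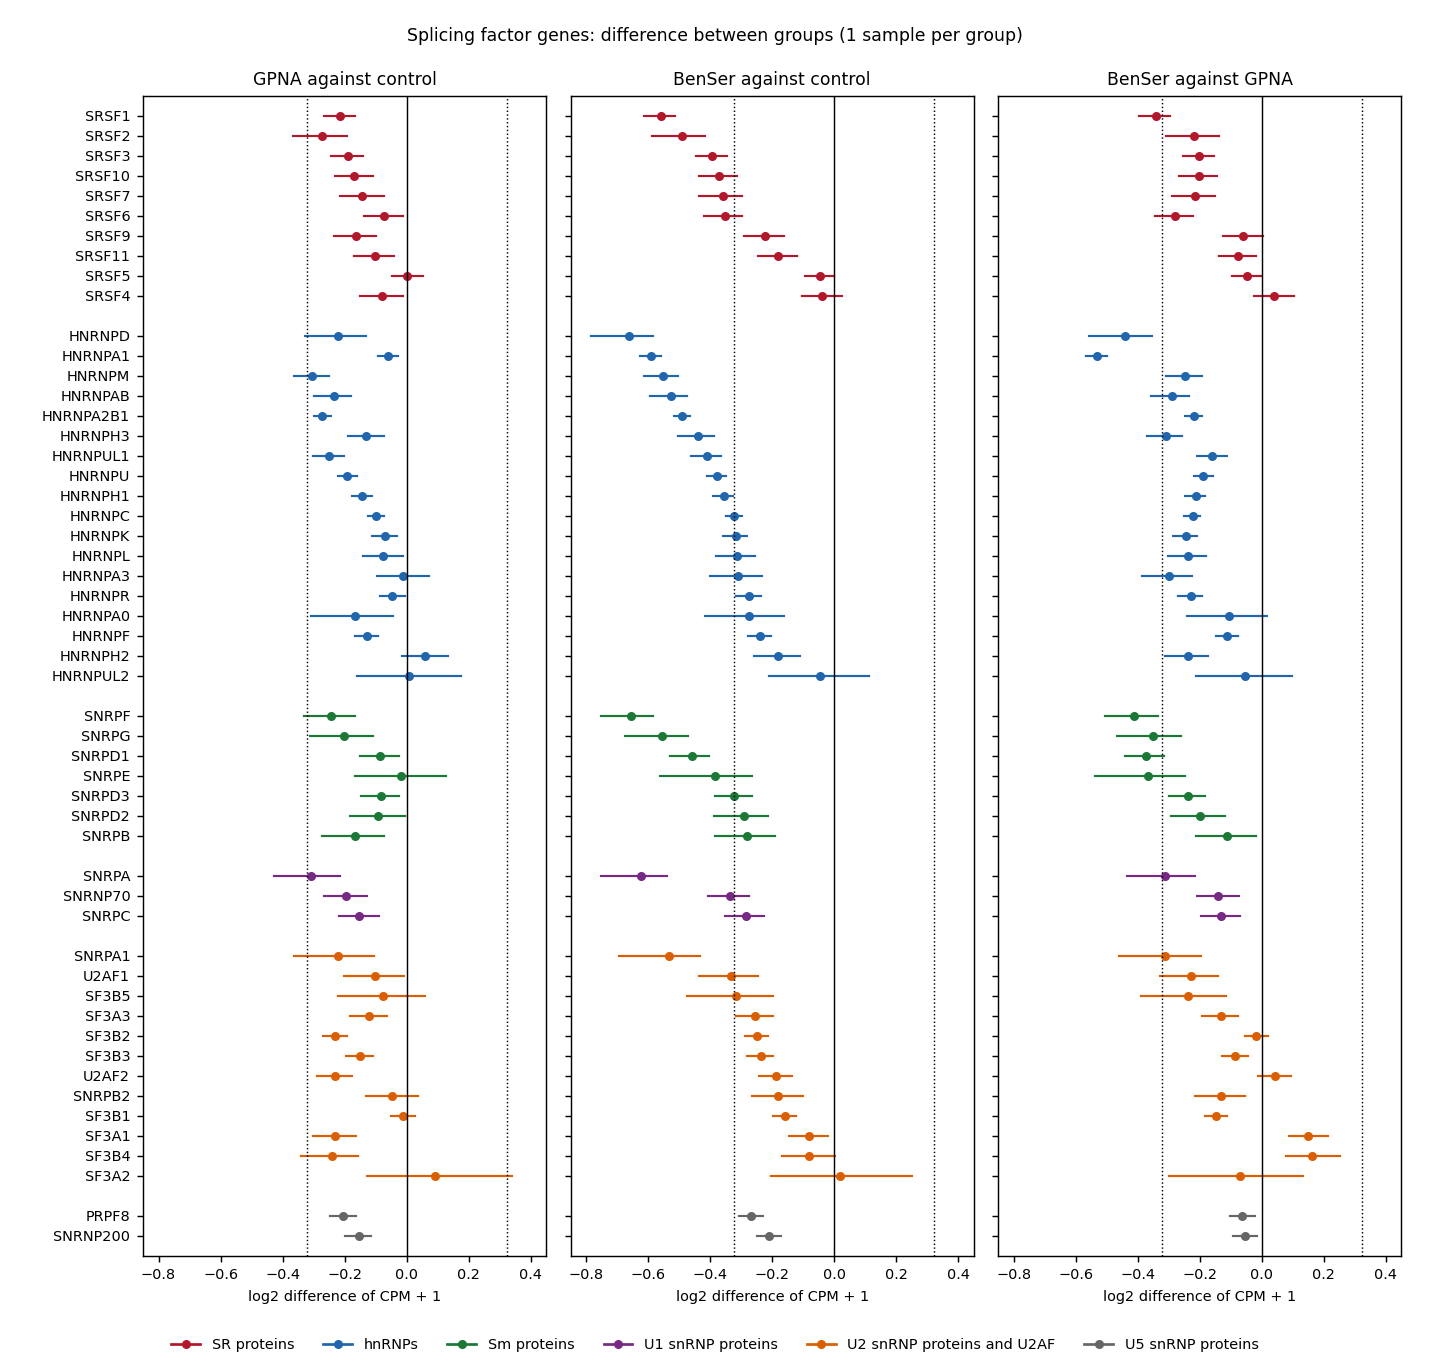
Difference in log2(CPM + 1) for each of the 52 genes in the 3 comparisons, coloured by role. Points are the differences of group means, bars the 95% counting intervals of the read ratio, and dotted lines the steps of 20% lower and 25% higher. The points of BenSer against control (middle) reach from -0.66 to 0.020, and those of GPNA against control (left) from -0.31 to 0.091.

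Set against GPNA directly, BenSer was below GPNA for 48 of 52 genes, with a median difference of -0.21 (-0.0093 over all 19056 genes compared). At least 20% lower were 7 genes: SRSF1, SNRPF, SNRPD1, SNRPE, SNRPG, HNRNPA1 and HNRNPD. That is beside 7.08% of all genes and 7.54% of genes averaging 10 CPM or more. None was 1.5-fold lower (0.813% of all genes) and none was 25% higher (6.86%). Genes below 0 made up 52.1% of all genes and 47.4% of those averaging 10 CPM or more, whose median was 0.016. The counting interval lay below 0 for 43 of the 52 genes (20.7% of all genes and 30.6% of those averaging 10 CPM or more) and above 0 for 2 (21.2% of all genes). Both BenSer libraries lay below both GPNA libraries for 45 genes (33.6% of all genes and 37.5% of those averaging 10 CPM or more) and above for 4 (31.7%), namely SRSF4, U2AF2, SF3A1 and SF3B4. All 3 comparisons draw on the same 3 groups, so that they are not independent of each other.

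**Figure D2:**
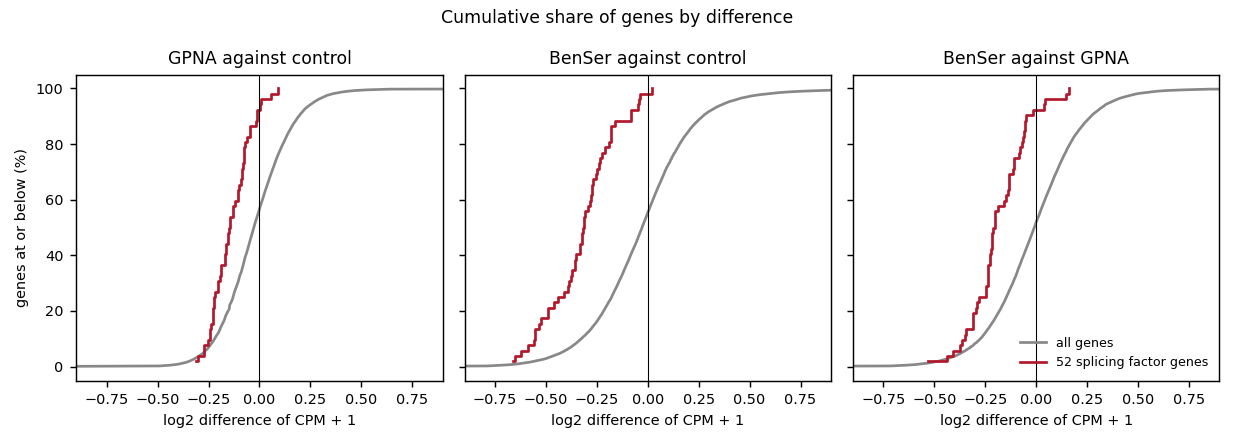
Cumulative share of genes (vertical axis, %) by difference in log2(CPM + 1) (horizontal axis) for the 52 genes (red) and all genes averaging 5 or more reads (grey). The red line lies left of the grey line over most of its length in each panel, with medians of -0.15, -0.32 and -0.21 from left to right.

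The sum of the 52 genes was 6420 and 6409 CPM in the control libraries, 5811 and 5778 CPM with GPNA, and 5094 and 5076 CPM with BenSer. Relative to the control mean it fell by 9.66% with GPNA and by 20.7% with BenSer. With BenSer the U2 and U2AF sum fell by 13.5% and the U5 sum fell by 15.3%. The SR sum fell by 18.7%, the U1 sum fell by 22.3%, the hnRNP sum fell by 23.7% and the Sm sum fell by 25.5%. With GPNA the Sm sum fell by 8.42%, the SR sum fell by 9.03%, the U2 and U2AF sum fell by 9.55%, the hnRNP sum fell by 9.57%, the U5 sum fell by 11.8% and the U1 sum fell by 12.9%. Some neighbours in this GPNA order, Sm and SR proteins among them, change places when 1 GPNA library is taken alone.

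**Figure D3:**
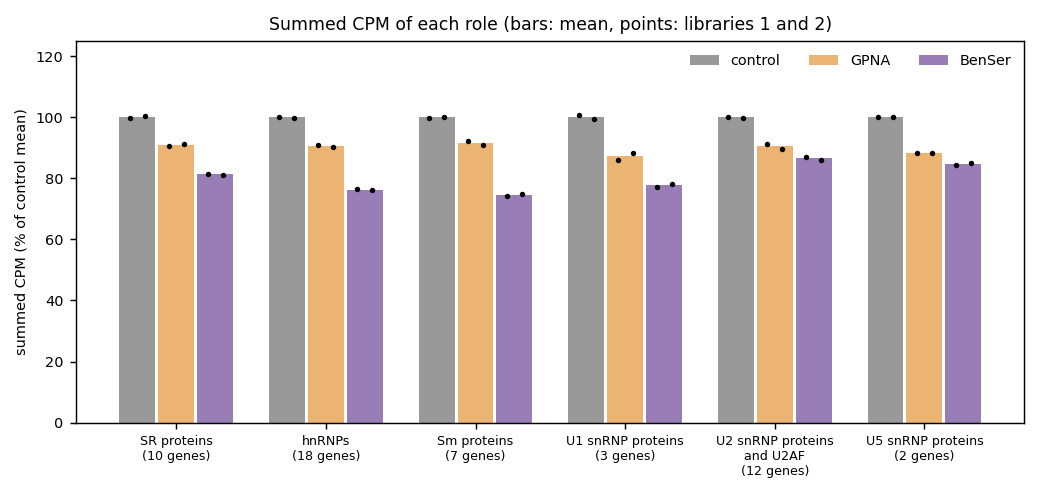
Summed CPM of each role as a percentage of the control mean (vertical axis, from 0). Bars are means of the 2 libraries and points the libraries. The points of a group lie close together, and in each role BenSer is below GPNA and GPNA below the control.

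Among the SR proteins, 10 of 10 were below the control with BenSer (55.4% of all genes) and 6 were at least 20% lower (10.3% of all genes and 13.9% of those averaging 10 CPM or more). The median difference was -0.36 with BenSer and -0.15 with GPNA. SRSF1 (chr17:56078280-56084707, minus strand, GRCh37), the founding member of the family and a regulator of exon choice, export and translation, stood at 143 and 144 CPM in the control libraries, 124 and 123 CPM with GPNA and 97.9 and 96.7 CPM with BenSer. Its difference was -0.22 (interval -0.27 to -0.17) with GPNA and -0.56 (interval -0.61 to -0.51) with BenSer, the lowest of the SR proteins with BenSer. SRSF2 (chr17:74730197-74733415, minus strand), which promotes inclusion of exons and is mutated in myeloid cancers, read 50.4 and 48.7 CPM in the control libraries, 40.2 and 41.4 CPM with GPNA and 35.3 and 34.6 CPM with BenSer. Its differences were -0.27 (interval -0.37 to -0.19) and -0.49 (interval -0.59 to -0.42). Both genes had 3 separate levels, the control highest and BenSer lowest.

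SRSF3, the smallest SR protein and an export adaptor, was at 137 and 141 CPM in the control libraries, 121 and 122 CPM with GPNA and 105 and 106 CPM with BenSer. Its differences were -0.19 with GPNA and -0.39 with BenSer. SRSF10, a splicing repressor when dephosphorylated, was at 91.3 and 91.0 CPM in the control libraries, 81.6 and 80.4 CPM with GPNA and 68.4 and 72.2 CPM with BenSer, or -0.17 and -0.37. Again no group overlapped another. SRSF7, which like SRSF3 couples splicing to export, had 70.6 and 69.3 CPM in the control libraries, 61.9 and 64.6 CPM with GPNA and 53.5 and 55.0 CPM with BenSer, or -0.14 and -0.36. SRSF6, a regulator of exon inclusion, had 86.7 and 84.8 CPM in the control libraries, 79.6 and 83.2 CPM with GPNA and 66.9 and 66.8 CPM with BenSer. Most of the difference of SRSF6 lay between the inhibitors: -0.074 for GPNA against control, and -0.28 for BenSer against GPNA.

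The remaining 4 SR proteins stood closer to the control with BenSer. SRSF9 was at 79.7 and 75.05 CPM in the control libraries, 70.7 and 67.3 CPM with GPNA and 65.9 and 66.4 CPM with BenSer, and its difference with BenSer was -0.22. SRSF11, an SR-related protein found with U2AF, had 82.7 and 84.5 CPM in the control libraries, 76.3 and 79.2 CPM with GPNA and 74.2 and 73.1 CPM with BenSer and a BenSer difference of -0.18. The order of both was kept, but their distance from the control with BenSer was smaller than that of SRSF1 to SRSF3. SRSF5 (chr14:70193617-70238722, plus strand), an activator of exons, was at 133 and 136 CPM in the control libraries, 134 and 135 CPM with GPNA and 133 and 127 CPM with BenSer, with 0.0015 for GPNA and -0.047 for BenSer. SRSF4 (chr1:29474255-29508412, minus strand), a close relative of SRSF6, was at 68.1 and 74.6 CPM in the control libraries, 68.4 and 66.6 CPM with GPNA and 68.5 and 70.3 CPM with BenSer, with -0.079 and -0.039. For both genes the BenSer interval included 0, and for SRSF4 the control libraries overlapped those of BenSer.

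**Figure D4:**
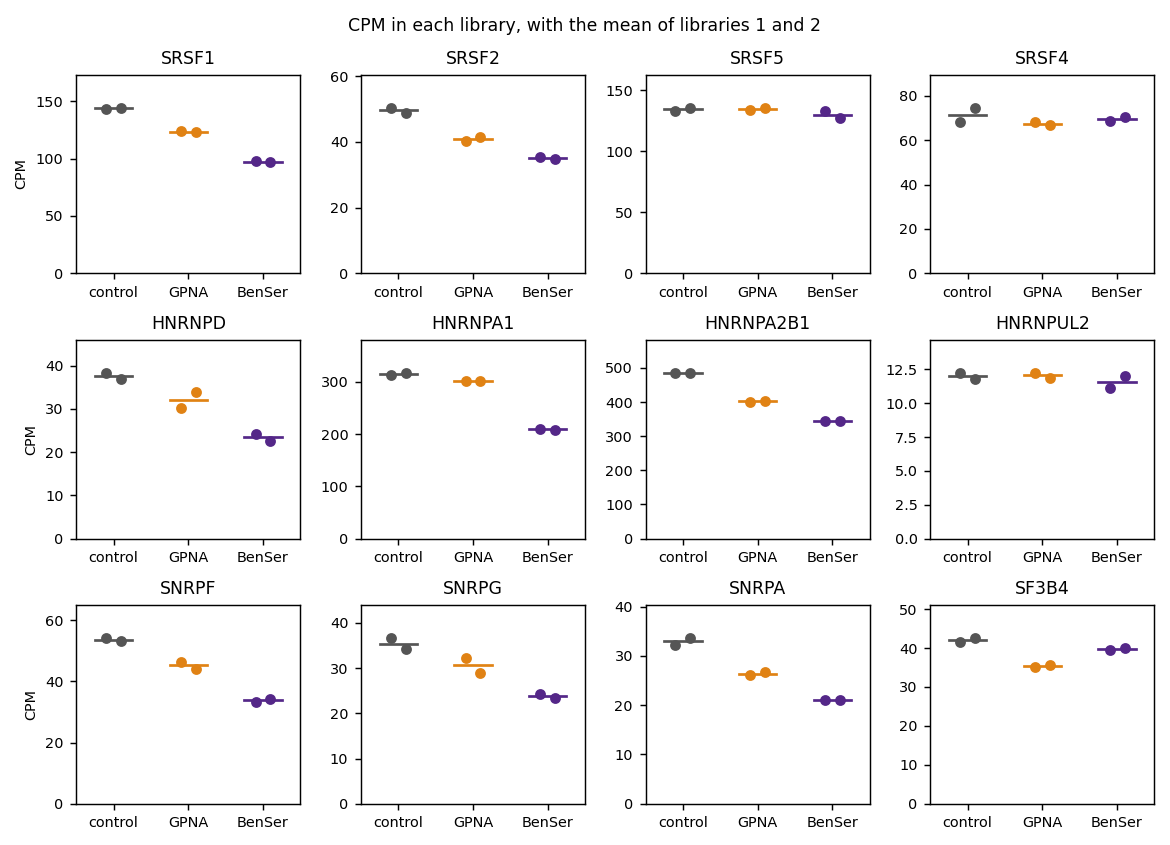
CPM (vertical axis, from 0) of 12 of the 52 genes in each library, with the mean of libraries 1 and 2 as a line. SRSF1, HNRNPD, SNRPF and SNRPA show 3 levels without overlap, SRSF4 and HNRNPUL2 overlap between the control and BenSer, and for SF3B4 GPNA is below BenSer.

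All 18 hnRNPs were below the control with BenSer, against 55.4% of all genes, and 10 were at least 20% lower, against 10.3% of all genes and 13.9% of those averaging 10 CPM or more. The median difference was -0.34 with BenSer, -0.13 with GPNA and -0.23 between BenSer and GPNA. HNRNPD (chr4:83273651-83295656, minus strand), also called AUF1, binds AU-rich elements and sets mRNA stability. It was at 38.3 and 36.8 CPM in the control libraries, 30.2 and 33.9 CPM with GPNA and 24.2 and 22.5 CPM with BenSer. Its difference was -0.22 (interval -0.33 to -0.13) with GPNA and -0.66 (interval -0.78 to -0.58) with BenSer, the lowest of the 52 genes with BenSer. The GPNA libraries of HNRNPD were the most unequal pair of libraries in that group, 11.8% apart.

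HNRNPA1 (chr12:54673977-54680872, plus strand), an abundant repressor of exons and antagonist of SRSF1, was at 313 and 317 CPM in the control libraries, 302 and 303 CPM with GPNA and 211 and 207 CPM with BenSer. GPNA left it -0.060 (interval -0.093 to -0.027) from the control, while BenSer left it -0.59 (interval -0.63 to -0.56). Its difference between BenSer and GPNA, -0.53 (interval -0.57 to -0.50), was the lowest of the 52 genes. HNRNPA1 has 74 annotated pseudogenes by name, of which 15 were in the tables, with 6.495 to 7.75 CPM in sum. Reads that fit a copy and the gene could have been given to either or to neither, and how many there were was not measured.

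HNRNPA2B1, a close relative that also sorts RNA into granules, was at 485 and 486 CPM in the control libraries, 400.2 and 404 CPM with GPNA and 346 and 345 CPM with BenSer. Its differences were -0.27 with GPNA and -0.49 with BenSer. HNRNPM, which binds GU-rich RNA, was at 118 and 119 CPM in the control libraries, 96.6 and 94.9 CPM with GPNA and 80.4 and 80.5 CPM with BenSer, with -0.30 and -0.55. It was the lowest hnRNP with GPNA. HNRNPUL1, a relative of HNRNPU, was at 142 and 144 CPM in the control libraries, 119 and 121 CPM with GPNA and 107 and 108 CPM with BenSer, with -0.25 and -0.41. HNRNPH3 had 103 and 105 CPM in the control libraries, 97.5 and 92.2 CPM with GPNA and 77.1 and 75.6 CPM with BenSer, with -0.13 and -0.44. In these 4 genes all 3 groups were apart.

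HNRNPF, which binds G-rich RNA, was at 252 and 243 CPM in the control libraries, 225 and 227 CPM with GPNA and 209 and 209 CPM with BenSer, with a BenSer difference of -0.24. HNRNPA3, with 5 of 16 named pseudogenes in the tables, was at 48.6 and 48.4 CPM in the control libraries, 48.1 and 48.0 CPM with GPNA and 37.9 and 40.0 CPM with BenSer. GPNA and the control thus stood level for HNRNPA3 (-0.012), and BenSer stood below both (-0.31). HNRNPA0 was at 20.7 and 20.3 CPM in the control libraries, 17.6 and 18.7 CPM with GPNA and 16.8 and 16.8 CPM with BenSer. HNRNPH2 was at 60.2 and 58.2 CPM in the control libraries, 61.4 and 62.0 CPM with GPNA and 52.8 and 51.5 CPM with BenSer, above the control with GPNA (0.058) and below it with BenSer (-0.18). HNRNPUL2 was at 12.2 and 11.8 CPM in the control libraries, 12.2 and 11.9 CPM with GPNA and 11.2 and 12.1 CPM with BenSer, and its groups overlapped.

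The differences of the other 7 hnRNPs were below 0 in both treatments, with none past the 20% step with GPNA and HNRNPAB, HNRNPU, HNRNPH1 and HNRNPC past it with BenSer. With BenSer the differences were -0.53 for HNRNPAB, -0.38 for HNRNPU, a scaffold protein of the nucleus, and -0.36 for HNRNPH1. They were -0.32 for HNRNPC, which binds uridine tracts, -0.32 for HNRNPK, which binds cytosine-rich RNA, -0.31 for HNRNPL, which binds CA repeats, and -0.28 for HNRNPR. With GPNA the same 7 ranged from -0.24 (HNRNPAB) to -0.047 (HNRNPR).

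The Sm proteins form the ring that is loaded onto snRNAs by the SMN complex. All 7 were below the control in both treatments, against 55.4% of all genes with BenSer and 56.7% with GPNA. Of genes averaging 10 CPM or more, 56.8% and 66.4% were below it. The median difference of the 7 was -0.39 with BenSer and -0.092 with GPNA. At least 20% lower with BenSer were 4 (10.3% of all genes and 13.9% of those averaging 10 CPM or more). Between BenSer and GPNA the median was -0.35 and 4 of 7 were at least 20% lower (7.08% of all genes and 7.54% of those averaging 10 CPM or more). SNRPF (chr12:96252730-96297606, plus strand) was at 54.1 and 53.2 CPM in the control libraries, 46.2 and 44.1 CPM with GPNA and 33.1 and 34.3 CPM with BenSer. Its differences were -0.24 (interval -0.33 to -0.17) with GPNA and -0.65 (interval -0.75 to -0.59) with BenSer. SNRPG was at 36.6 and 34.1 CPM in the control libraries, 32.3 and 28.9 CPM with GPNA and 24.2 and 23.3 CPM with BenSer, with -0.20 and -0.55. Both genes were apart in all 3 groups. Named pseudogenes of SNRPG (20, of which 3 in the tables) had 1.91 to 3.14 CPM in sum, up to 10.9% of the gene's own level in a library.

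SNRPD1 was at 86.1 and 86.9 CPM in the control libraries, 84.2 and 78.7 CPM with GPNA and 61.5 and 63.8 CPM with BenSer, with -0.086 and -0.46. SNRPE, at low counts, was at 14.9 and 16.6 CPM in the control libraries, 15.4 and 15.6 CPM with GPNA and 11.9 and 11.8 CPM with BenSer, with -0.019 and -0.39 (interval -0.56 to -0.26). For SNRPE the GPNA libraries lay between those of the control, and those of BenSer lay below. SNRPD3 was at 93.6 and 92.9 CPM in the control libraries, 87.9 and 87.9 CPM with GPNA and 74.2 and 74.7 CPM with BenSer. SNRPD2 was at 42.8 and 44.7 CPM in the control libraries, 39.4 and 42.5 CPM with GPNA and 35.1 and 36.0 CPM with BenSer. SNRPB, whose product also controls its own splicing, was at 34.7 and 35.6 CPM in the control libraries, 29.6 and 32.9 CPM with GPNA and 29.1 and 28.5 CPM with BenSer. Their BenSer differences were -0.32, -0.29 and -0.28, with BenSer below GPNA and GPNA below the control in each.

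All 3 U1 proteins were below the control in both treatments. So were 55.4% of all genes with BenSer and 56.7% with GPNA. Of genes averaging 10 CPM or more, 56.8% were below the control with BenSer and 66.4% with GPNA. SNRPA (chr19:41256542-41271294, plus strand), which binds a stem-loop of U1 RNA, was at 32.3 and 33.6 CPM in the control libraries, 26.1 and 26.7 CPM with GPNA and 21.0 and 21.1 CPM with BenSer. Its differences were -0.31 (interval -0.43 to -0.21) with GPNA, the lowest of the 52 genes in that comparison, and -0.62 (interval -0.75 to -0.54) with BenSer. SNRNP70, which contacts SR proteins, was at 75.6 and 72.8 CPM in the control libraries, 63.3 and 66.0 CPM with GPNA and 57.6 and 59.5 CPM with BenSer, with -0.20 and -0.34. SNRPC, which stabilises the pairing of U1 with the 5' splice site, was at 85.4 and 84.0 CPM in the control libraries, 75.6 and 76.6 CPM with GPNA and 69.4 and 69.3 CPM with BenSer, with -0.15 and -0.28.

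The U2 proteins and U2AF had a median difference of -0.14 with GPNA and -0.21 with BenSer. With BenSer 11 of 12 were below the control (55.4% of all genes and 56.8% of those averaging 10 CPM or more). The 2 at least 20% lower are a share near that of genes averaging 10 CPM or more (13.9%). SNRPA1 (chr15:101821715-101835487, minus strand), which binds U2 RNA, was at 21.7 and 21.5 CPM in the control libraries, 17.7 and 19.0 CPM with GPNA and 13.8 and 15.4 CPM with BenSer, with -0.22 (interval -0.36 to -0.10) and -0.53 (interval -0.69 to -0.43). U2AF1, the subunit that reads the AG at the 3' splice site, was at 36.6 and 38.1 CPM in the control libraries, 34.0 and 35.4 CPM with GPNA and 29.9 and 29.1 CPM with BenSer, with -0.10 and -0.33. SNRPA1 and U2AF1 were the 2 genes at least 20% lower. SF3B5, a small subunit of the SF3b complex, was at 17.0 and 18.2 CPM in the control libraries, 16.7 and 16.5 CPM with GPNA and 13.2 and 14.7 CPM with BenSer, with -0.32 for BenSer.

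SF3B4 (chr1:149895209-149899695, minus strand), an SF3b subunit next to the branch site, was at 41.6 and 42.6 CPM in the control libraries, 35.2 and 35.7 CPM with GPNA and 39.5 and 39.9 CPM with BenSer. It was -0.24 (interval -0.34 to -0.16) from the control with GPNA but only -0.082 with BenSer, so that BenSer stood above GPNA by 0.16 (interval 0.077 to 0.25). SF3A1 (chr22:30727977-30752908, minus strand), the scaffold of SF3a, was at 76.8 and 78.6 CPM in the control libraries, 65.7 and 66.6 CPM with GPNA and 72.4 and 74.3 CPM with BenSer, or -0.23 with GPNA and -0.082 with BenSer. BenSer stood above GPNA by 0.15 (interval 0.086 to 0.21). These were the only 2 of the 52 genes whose interval between BenSer and GPNA lay above 0, and the cause was not tested.

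U2AF2, the large subunit of U2AF, was at 114 and 116 CPM in the control libraries, 99.3 and 96.3 CPM with GPNA and 101 and 101 CPM with BenSer. SF3B2, another SF3b subunit, was at 239 and 233 CPM in the control libraries, 204 and 198 CPM with GPNA and 202 and 195 CPM with BenSer. Their difference from the control was close in both treatments: -0.23 and -0.19 for U2AF2, -0.23 and -0.25 for SF3B2. SF3B1, the subunit that clamps the branch site and is mutated in several cancers, was at 235 and 233 CPM in the control libraries, 235 and 229.6 CPM with GPNA and 209 and 209.8 CPM with BenSer, with -0.012 and -0.16. SNRPB2, a partner of SNRPA1, was at 47.0 and 47.8 CPM in the control libraries, 48.0 and 43.6 CPM with GPNA and 43.7 and 39.7 CPM with BenSer. SF3A2, the lowest-count gene of the 52, was at 6.54 and 5.46 CPM in the control libraries, 6.43 and 6.48 CPM with GPNA and 5.81 and 6.39 CPM with BenSer, and its control libraries were 18.1% apart. SF3A3 and SF3B3 had BenSer differences of -0.25 and -0.24.

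In the U5 role, PRPF8, at the catalytic centre of the spliceosome, was at 209 and 209 CPM in the control libraries, 182 and 180.2 CPM with GPNA and 173 and 174 CPM with BenSer. The helicase SNRNP200, which unwinds U4 from U6, was at 206 and 205 CPM in the control libraries, 183 and 185 CPM with GPNA and 177 and 177 CPM with BenSer. The differences of PRPF8 were -0.21 with GPNA and -0.27 with BenSer, and those of SNRNP200 were -0.16 and -0.21. Both genes were apart in all groups, with only -0.062 and -0.054 between BenSer and GPNA.

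Per kilobase of the Ensembl canonical transcript, the control level spread from 156 CPM per kb for HNRNPC over 143 for HNRNPH1, 134 for HNRNPA2B1, 119 for SNRPF and 105 for SNRPC down to 2.35 for HNRNPA0 and 2.30 for HNRNPUL2. In this order 28 of the 51 pairs of neighbours had overlapping 95% counting intervals. These transcripts were 452 to 9692 bases long. The order rests on the canonical transcript alone, and which transcripts these cells made was not measured. All 52 genes had a model in GRCh37, on 20 chromosomes. Exons of 21 of the genes overlapped exons of a gene on the opposite strand. Those of 15 overlapped exons of a gene on the same strand. Reads there could be assigned to either gene or to neither. Whether the authors' counting used strand is not stated. For 30 genes there were annotated pseudogenes of the same name.

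The RefSeq promoters (250 bases before to 50 after the start site, GRCh38.p14) of 48 of the 52 genes were matched by symbol. The 7 letters CCGGAAG, the core read by ETS factors, were searched on both strands and lay in 18 of them (37.5%), against 12.2% of 27305 genes. The CCAAT box, with the letters CCAAT, lay in 22 (45.8%), against 39.7% of genes, and the E box CACGTG in 7 (14.6%), against 8.78%. The E2F letters TTTCGCGC and TTTGGCGC lay in 0 and 1 promoters (0.630% and 0.795% of genes), an NRF1 motif in 0 (1.52%) and a YY1 motif in 1 (1.46%). The shares of genes are over all genes with a promoter sequence, whether or not they were listed or expressed here. No share was taken over genes as abundant as the 52, so an excess cannot be tied to splicing genes. A match is a description of letters and not a measured site. Genes with the ETS core stood at both ends of the range, which is why 4 stretches of 100 bases are shown: HNRNPD and SNRPA1 were low with BenSer, and SRSF5 and SF3A2 were near the control. The choice of these 4 was made with their values known. The ETS core is in capitals, CCGGAAG on the strand shown or CTTCCGG on the other, and each stretch is written 5' to 3' on the strand of the gene.
HNRNPD (chr4:82374120-82374219, minus strand): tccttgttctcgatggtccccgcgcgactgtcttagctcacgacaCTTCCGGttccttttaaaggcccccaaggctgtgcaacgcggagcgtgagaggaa
SNRPA1 (chr15:101295307-101295406, minus strand): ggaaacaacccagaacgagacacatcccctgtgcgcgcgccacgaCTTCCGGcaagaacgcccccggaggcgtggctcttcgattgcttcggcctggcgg
SRSF5 (chr14:69767040-69767139, plus strand): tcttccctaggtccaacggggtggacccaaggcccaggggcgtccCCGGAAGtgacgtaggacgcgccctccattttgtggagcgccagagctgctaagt
SF3A2 (chr19:2236724-2236823, plus strand): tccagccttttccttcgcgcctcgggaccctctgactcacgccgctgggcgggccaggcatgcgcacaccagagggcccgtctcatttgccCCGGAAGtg
These differed by -0.66, -0.53, -0.047 and 0.020 from the control with BenSer. The 18 genes with the core had a median BenSer difference of -0.24, and 4 were at least 20% lower. The 30 without it had a median of -0.33, and 17 were at least 20% lower. That step was passed by 10.3% of all genes and 13.9% of those averaging 10 CPM or more. With GPNA the medians were -0.15 with the core and -0.14 without it, and for BenSer against GPNA they were -0.11 and -0.23. The roles were spread unevenly over this split. The core lay in SF3A1, SF3A2, SF3A3, SF3B2, SF3B4, SNRPA1, SNRPB2 and U2AF2 of the U2 role, but only in HNRNPD and HNRNPF of the hnRNPs. The BenSer median was -0.21 for the U2 role and -0.34 for hnRNPs, so that core and role cannot be told apart here. No test was made of this split.

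Another 144 measured splicing genes, of 146 listed by role, were compared in the same way. With BenSer 118 were below the control (55.4% of all genes and 56.8% of those averaging 10 CPM or more), with a median difference of -0.21. At least 20% lower were 34, against 10.3% of all genes, and MBNL2 alone was 25% higher (7.36% of all genes). With GPNA 124 were below the control (56.7% of all genes and 66.4% of those averaging 10 CPM or more), with a median of -0.11. The 4 of 144 at least 20% lower are a share near that of all genes (2.74%), and none was 25% higher (2.86% of all genes). The medians with BenSer lay lowest for other U2 and branch site factors (-0.30), tri-snRNP and LSm proteins (-0.27), other splicing regulators (-0.26) and snRNP assembly (-0.25). They were near 0 for the factors of the catalytic steps and the PRPF19 complex (-0.034), and -0.095 for the SR and CLK kinases, which phosphorylate SR proteins.

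Among the lowest of these genes with BenSer were MAGOHB, a core protein of the exon junction complex, and the export helicase DDX39A. MAGOHB was at 8.91 and 9.10 CPM in the control libraries, 8.14 and 6.91 CPM with GPNA and 5.44 and 4.66 CPM with BenSer, a BenSer difference of -0.73. DDX39A was at 63.8 and 66.4 CPM in the control libraries, 55.0 and 55.7 CPM with GPNA and 39.7 and 40.9 CPM with BenSer, or -0.68. The 3 groups were apart in both genes. The highest with BenSer were MBNL2, a muscleblind splicing regulator, SMG5, a factor of nonsense-mediated decay, and the kinase CLK3.

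MBNL2 was at 31.4 and 32.9 CPM in the control libraries, 33.4 and 32.8 CPM with GPNA and 46.3 and 44.99 CPM with BenSer, with a BenSer difference of 0.49. SMG5 was at 120.1 and 117 CPM in the control libraries, 109.7 and 112 CPM with GPNA and 148 and 147 CPM with BenSer, or 0.31 with BenSer and 0.40 for BenSer against GPNA. CLK3 was at 36.8 and 36.2 CPM in the control libraries, 36.4 and 35.3 CPM with GPNA and 42.8 and 40.5 CPM with BenSer, or 0.18. In all 3 the BenSer libraries were above those of both other groups. With GPNA, KHSRP (-0.34) and ACIN1 (-0.33) were among the lowest, and ISY1 (0.17), SYF2 (0.13) and SLU7 (0.11) were highest. The interval of ISY1, a gene at low counts, included 0 (-0.068 to 0.47). Against GPNA, BenSer was lowest for MAGOHB (-0.49), HNRNPDL (-0.48) and TAF15 (-0.47) and highest for MBNL2 (0.45) and SMG5.

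**Figure D5:**
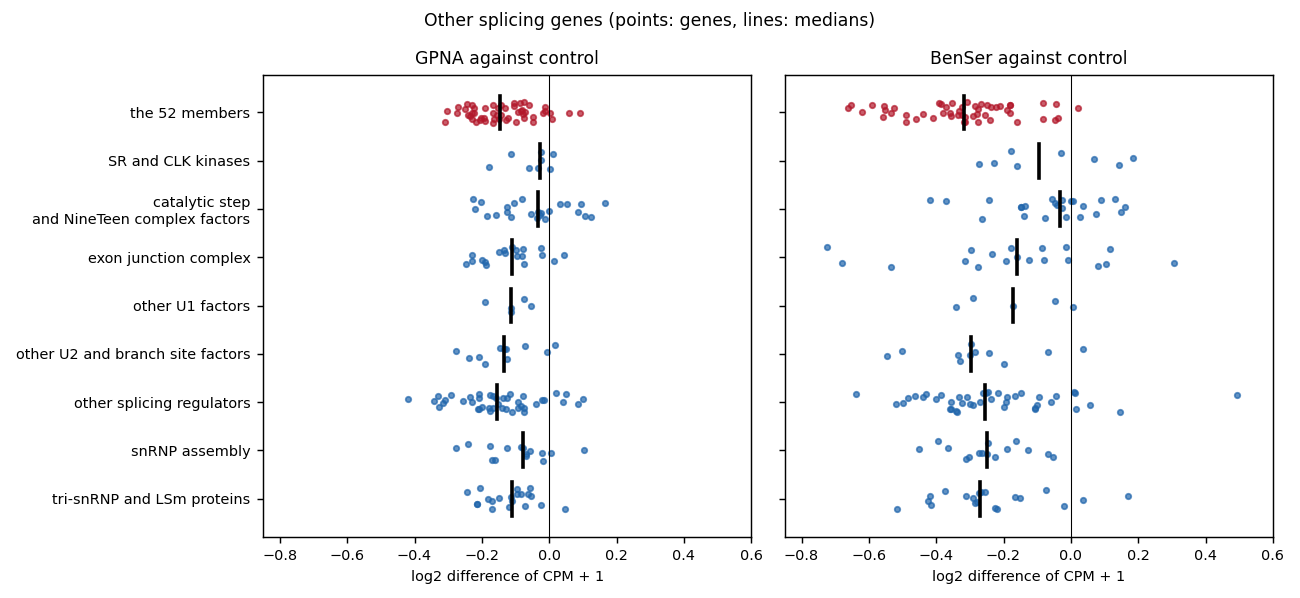
Difference in log2(CPM + 1) (horizontal axis) of the 52 genes (red) and of other splicing genes by role (blue), with medians as black lines. With BenSer (right) the median of the 52 genes is -0.32 and that of catalytic step factors -0.034. With GPNA (left) the medians lie between -0.16 and -0.029.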

How the data were processed

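Total RNA of 6 libraries was sequenced (TruSeq Stranded Total RNA kit, Illumina). The authors trimmed the reads, mapped them with TopHat2 to hg19/GRCh37.p13 and counted them per gene (HTSeq 0.6.2p2, per the submitters' processing notes), with a threshold of 5 reads in at least 1 group. The authors deposited CPM, scaled to the library total, in 2 tables whose columns are headed as counts. They also deposited log2 fold changes, p-values and false discovery rates, which were not used. Each table holds 4 columns per group. The labels name 2 libraries per group, and the 8 other column entries (6 distinct) were not used here. Divided by the worth of 1 read, 100% of the CPM values came out whole within 0.001 reads, and the reads were so recovered. The planned test for more than 1 sample per group was not made, because the 2 libraries of a group were counted as 1 sample. That is an assumption from their likeness: the study's methods speak of 4 replicates per group. Means of CPM were compared as log2(CPM + 1), for genes averaging 5 or more reads in 1 of the groups. Calls were set at 20% lower or 25% higher on that scale, with 95% Clopper-Pearson intervals on the reads of both libraries, where 51.6% to 52.7% of reads fell on listed genes. All members are accounted for by role. The named genes are, per role and comparison, up to 3 lowest and up to 3 highest, and of the other splicing genes the 3 lowest and 3 highest. Some results under this rule are not reported here. The members and lists were chosen with earlier results of these data known. Gene models came from GENCODE v44 lifted to GRCh37. Same library numbers showed no pairing (correlations of deviations 0.017, 0.023 and 0.017 over 13240 genes). Alternatives were other pseudocounts, filters, scalings and folds, single libraries left out, a replicate block, and edgeR 4.0.16, limma 3.58.1 and DESeq2 1.42.0 on the 6 libraries with Benjamini-Hochberg adjustment, which under that assumption compare libraries and not treatments. The fold calls and the edgeR, limma and DESeq2 calls of GPNA and BenSer against control were tried on simulated reads with known changes. The other steps were not tried in that way. Python 3.11.15, numpy 2.4.6, pandas 2.3.3, scipy 1.17.1, matplotlib 3.10.9 and R 4.3.3 were used.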

Additional observations from a re-analysis of the deposited data

How the results depend on the processing

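The median difference of the 52 genes stayed below 0 in each comparison under every pseudocount, filter, scaling and left-out library tried, and no single gene that had been called changed sign. It ranged from -0.16 to -0.11 with GPNA, -0.32 to -0.27 with BenSer and -0.23 to -0.20 between them. TMM scaling moved the median of all genes to 0.0019 and 0.0020 and gave members' medians of -0.11 with GPNA (45 of 52 below 0) and -0.27 with BenSer (50 of 52). Under TMM the share of all genes at least 20% lower and 25% higher was 1.80% and 3.61% with GPNA, against 2.74% and 2.86%, and 8.02% and 8.90% with BenSer, against 10.3% and 7.36%. A pseudocount of 0.1 raised these shares to 10.6% and 11.7% with GPNA and to 20.3% and 15.0% with BenSer, where 0 and 26 of the 52 genes were at least 20% lower. Members at least 20% lower with BenSer numbered 18 to 26 under the scalings, pseudocounts and left-out libraries, and 4 at 1.5-fold. With GPNA they numbered 0 to 1 when single libraries were left out (1 without control library 1 or GPNA library 2), against 3.805% to 3.94% of all genes. Between BenSer and GPNA they numbered 7 to 10, and 0 at 1.5-fold (0.813% of all genes). The share of all genes at least 20% lower in that comparison ran from 6.675% with DESeq2 size factors to 17.4% with a pseudocount of 0.1. Tests that treat the libraries as samples called more: with GPNA 21 lower by DESeq2 (6.57% of all genes tested), 29 by edgeR (8.83%), 29 by edgeR with the replicate block (8.84%) and 3 by limma (1.42%), with BenSer 43 (13.7%), 46 (17.8%), 46 (17.8%) and 44 (16.0%), and for BenSer against GPNA 34 (12.2%), 38 (16.3%), 38 (16.1%) and 28 (10.9%) lower and 2 (14.7%), 2 (18.2%) and 2 (18.1%) higher by DESeq2, edgeR and the block. If the 2 libraries of a group are runs of 1 sample, which the labels do not settle, these calls compare libraries and not treatments. The cause of the different counts was not tested. The labels give no pairing of library numbers, and the replicate block changed the counts of edgeR calls among the 52 genes by 0. The filter of at least 10 CPM was chosen after seeing the data. SF3A2, at about 6 CPM, is limited by depth.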
